A study of Mus musculus with 19 samples.

Results

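The genes described here encode the nuclear subunits of the mitochondrial respiratory chain and of ATP synthase, complexes I to V. They were taken by symbol: names that begin with Nduf, Uqcr, Cox4 to Cox8 or Atp5, and Sdha, Sdhb, Sdhc and Sdhd. Of the 24421 gene rows of the 'HEART' count table, 92 matched, and the 88 with a mean of at least 1 CPM (read counts scaled to the size of each library) were kept. They comprised 44 genes of complex I, 4 of complex II, 8 of complex III, 15 of complex IV and 17 of complex V. By name 79 of the 88 are subunits, 7 are Ndufaf assembly factors of complex I, and Atp5s and Atp5sl are no subunits despite their old symbols. The remaining 4 matches were Cox7b2, Cox8b and Cox8c, with 3, 12 and 0 counts in all libraries together, and Ndufs5, listed at 0 in every library.

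RNA was sequenced from single mouse embryos at E9.5, either Mesp1-Cre; Chd7 fl/fl (cKO), which lose the chromatin remodeller CHD7 in the cells that express Mesp1-Cre and their descendants, or Mesp1-Cre without floxed alleles (control), so both genotypes carried the Cre. 'HEART' samples (4 cKO, 4 control) held the outflow tract with the heart and were poly(A)-selected. 'SHF' samples (6 cKO, 5 control) held the distal pharyngeal apparatus, with second heart field progenitors among other cells, and were depleted of ribosomal RNA. The comparison asks what loss of CHD7 from the early cardiopharyngeal mesoderm does to transcription in each dissection. Cells outside the Mesp1 lineage kept Chd7 in both.

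Complexes I and II pass electrons from NADH and succinate to ubiquinone, complex III passes them to cytochrome c, and complex IV passes them to oxygen. Complex V uses the proton gradient that this builds to make ATP. A few complex IV subunits have tissue- or condition-restricted paralogues: COX6A2, COX7A1 and COX8B are the heart and skeletal muscle forms, and COX4I2 is the form linked to low oxygen and to the lung. NDUFA4L2 is a paralogue of NDUFA4 that rises under low oxygen in many cell types. NDUFA4 itself was long counted as a complex I subunit and is now placed in complex IV, and both are grouped here by symbol. In the adult mouse brain Ndufa4l2 and Cox4i2 are also known as markers of pericytes.

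Nuclear respiratory chain genes are known targets of the transcription factors NRF1 and GABP, and GABP belongs to the ETS family. RefSeq windows of 300 bases on GRCm38.p6 (250 before to 50 after an annotated start) were found for 73 of the 88 genes, 79 windows in all. The 8 letters CGCATGCG, the core of the NRF1 motif, stood in 11 of these 79 windows, 13.9%, against 1.87% of all 32851 windows. The 7 letters CCGGAAG, an ETS core, stood in 17 of the 79, 21.5%, against 8.86% of all windows. Both strands were read in each case, and the motifs do not overlap in the windows printed. Most of the 79 windows held neither. Windows of 5 genes held both, and 3 of these are printed to show the motifs side by side, a feature of a minority of the chain genes, with the motifs in capitals on whichever strand they lie. No entry was found for Ndufa4l2, Cox4i2 or Cox6a2.
Cox6a1 (chr5:115348909-115349208, minus strand): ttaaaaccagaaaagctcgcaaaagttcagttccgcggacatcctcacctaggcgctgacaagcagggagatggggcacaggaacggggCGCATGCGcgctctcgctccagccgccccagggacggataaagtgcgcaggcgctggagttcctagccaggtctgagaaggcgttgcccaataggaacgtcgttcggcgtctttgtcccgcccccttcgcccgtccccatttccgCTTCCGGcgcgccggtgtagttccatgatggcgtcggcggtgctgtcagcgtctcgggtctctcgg
Uqcr11 (chr10:80406772-80407071, minus strand): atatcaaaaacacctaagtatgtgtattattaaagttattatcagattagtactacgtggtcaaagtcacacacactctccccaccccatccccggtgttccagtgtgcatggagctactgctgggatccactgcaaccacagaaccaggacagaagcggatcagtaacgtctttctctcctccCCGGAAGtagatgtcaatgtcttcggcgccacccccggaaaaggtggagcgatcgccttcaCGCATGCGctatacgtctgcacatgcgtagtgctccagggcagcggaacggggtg
Atp5k (chr5:108434350-108434649, minus strand): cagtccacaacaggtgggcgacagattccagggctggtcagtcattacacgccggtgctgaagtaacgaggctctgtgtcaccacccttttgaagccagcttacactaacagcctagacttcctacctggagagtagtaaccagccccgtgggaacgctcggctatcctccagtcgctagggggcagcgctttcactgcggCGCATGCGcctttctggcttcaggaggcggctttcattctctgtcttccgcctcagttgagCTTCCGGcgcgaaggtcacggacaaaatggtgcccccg
The NRF1 letters began 161 bases before the start in Cox6a1, 5 before it in Uqcr11 and 49 before it in Atp5k, and the ETS letters began 16 before, 66 before and at base 13 after it in the same 3 genes. The letters of the low oxygen response element, counted in the same way, were also more frequent. GCGTG stood in 57.0% of the 79 windows, against 32.4% of all, and ACGTG in 26.6%, against 19.6% of all. The windows compared were not matched for base composition. A match describes the sequence and is no evidence of binding.

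The 'HEART' libraries held 8640839 to 15030099 counts. The targeted gene Chd7 was at 35.8, 43.5, 42.7 and 20.4 CPM in cKO 1 to 4, against 230, 224, 231 and 242 CPM in control 1 to 4, so each library matched its label. Xist, the RNA that coats the silenced X chromosome, had 34.6 to 86.3 CPM in all 4 cKO libraries, against 61.4 CPM in control 1 and 0.162 to 1.28 CPM in control 2, 3 and 4, and genotype and Xist level were therefore not independent. Cardiomyocyte markers marked the dissection as labelled: the 15 listed summed to 46293 to 50972 CPM in cKO and 47397 to 54553 CPM in control. Library cKO 4 stood apart from the other 7 in the level of the respiratory chain genes themselves, and its values are given with each result below.

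In 'HEART' most respiratory chain transcripts differed little between genotypes. Of the 88 genes, all of which passed the filter on low counts, 2 were higher in cKO (Ndufa4l2 and Cox4i2) and 1 was lower (Cox6a2) by edgeR's quasi-likelihood test with Benjamini-Hochberg adjustment over all 12694 genes tested, at a threshold of 0.1. Over all genes tested 446 (3.51%) were called higher and 371 (2.92%) lower, so that the 2.27% and 1.14% of the chain genes called were no larger shares than the background. The remaining 85 had log2 fold changes between -0.24 (Atp5sl) and 0.15 (Atp5s), and the lowest unadjusted p among them was 0.0606 (adjusted p = 0.333). DESeq2 called the same 3 genes. The median log2 fold change was -0.03, beside -0.01 over all genes. Of the 88 estimates 64 (72.7%) lay below 0, beside 51.5% over all genes tested. With total counts in place of TMM scaling, 360 genes were called higher and 478 lower, among them the same 3 chain genes. In that fit 77 of the 88 estimates lay below 0 (median -0.07, beside -0.04 over all genes), and the share of all genes below 0 was not computed. The 95% interval lay within 1.2-fold of no change in either direction for 51 genes and within 1.5-fold for 84. Genotypes did not overlap in 1 of the 88 genes (Ndufa4l2), against 10.2% of all genes. In bulk tissue, fewer cells of a type and less RNA per cell cannot be told apart.

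**Figure D1:**
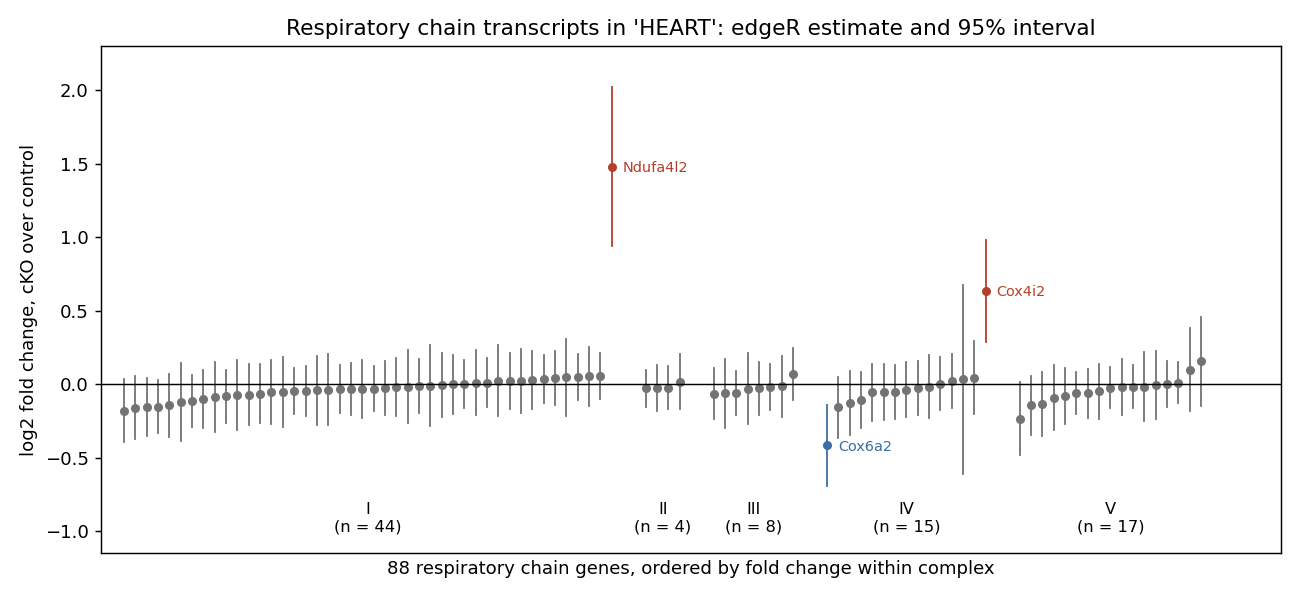
Log2 fold change of cKO over control for each of the 88 genes in 'HEART' (edgeR estimate, points) with its 95% interval (bars), ordered within complexes I to V. Ndufa4l2 (1.48), Cox4i2 (0.63) and Cox6a2 (-0.42) are the 3 genes past the adjusted threshold of 0.1, and every other estimate lies between -0.24 and 0.15.

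Ndufa4l2 (chromosome 10, 127514967 to 127517154, plus strand, mm10) showed the greatest difference of the group. It was at 5.41, 7.21, 4.68 and 9.60 CPM in cKO 1 to 4, against 2.72, 2.47, 1.78 and 2.72 CPM in control 1 to 4. All 4 cKO libraries lay above all 4 controls, with cKO 4 highest. The means were 6.73 ± 2.19 CPM in cKO and 2.42 ± 0.445 CPM in control (SD, n = 4 each). The log2 fold change was 1.48 ± 0.25 (SE), or 2.78-fold, with an adjusted p of 0.00454 by edgeR. It was a weakly expressed gene, with 22 to 125 counts a library, and at 4.90 CPM per kb of exon it had the lowest level per length of the 44 complex I genes. The call held when any 1 library was left out (adjusted p 0.00489 to 0.0181) and was lost with log2 Xist CPM as a covariate, where the log2 fold change was 1.44 (adjusted p = 0.141).

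Its partner Ndufa4, the most abundant of the complex I symbols per kb of exon, was at 179, 166, 177 and 204 CPM in cKO 1 to 4, against 177, 178, 169 and 176 CPM in control 1 to 4. The genotypes overlapped, and the log2 fold change was 0.05 (95% interval -0.10 to 0.21). Ndufa4l2 thus took 2.93%, 4.17%, 2.58% and 4.49% of the summed CPM of the pair in cKO 1 to 4, against 1.51%, 1.37%, 1.04% and 1.53% in control 1 to 4.

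Cox4i2 (chromosome 2, 152754173 to 152765037, plus strand) was at 13.2, 14.9, 11.0 and 15.6 CPM in cKO 1 to 4, against 7.50, 7.25, 9.62 and 11.1 CPM in control 1 to 4. Only cKO 3 and control 4 overlapped, and narrowly. The means were 13.7 ± 2.05 CPM in cKO and 8.88 ± 1.85 CPM in control (SD, n = 4 each). The log2 fold change was 0.63 ± 0.16 (SE), or 1.55-fold, with an adjusted p of 0.045 by edgeR. The call did not survive leaving out cKO 1 (adjusted p = 0.101), cKO 2 (0.135), control 1 (0.153) or control 2 (0.119), with log2 fold changes of 0.55 to 0.65, nor the Xist covariate (0.92, adjusted p = 0.121). Without cKO 4 it held (0.57, adjusted p = 0.072).

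Cox4i1, the common form of the same subunit, was at 351, 376, 336 and 454 CPM in cKO 1 to 4, against 383, 399, 392 and 384 CPM in control 1 to 4. Libraries cKO 1, 2 and 3 lay below every control and cKO 4 above, and the log2 fold change was -0.04 (95% interval -0.22 to 0.15). Within the pair Cox4i2 took 3.62%, 3.81%, 3.17% and 3.32% in cKO 1 to 4, against 1.92%, 1.79%, 2.39% and 2.82% in control 1 to 4. As a share of the pair, Cox4i2 no longer overlapped between genotypes.

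Cox6a2 (chromosome 7, 128205435 to 128206387, minus strand), the striated muscle form of subunit VIa, was at 48.9, 49.1, 44.8 and 63.3 CPM in cKO 1 to 4, against 69.6, 74.9, 77.8 and 53.5 CPM in control 1 to 4. Here cKO 4 was the highest cKO library and control 4 the lowest control, and those 2 overlapped. The means were 51.5 ± 8.10 CPM in cKO and 69.0 ± 10.9 CPM in control (SD, n = 4 each), and the log2 fold change was -0.42 ± 0.13 (SE), or 1.34-fold lower in cKO, with an adjusted p of 0.0949 by edgeR. This was close to the threshold. Without cKO 1, 2 or 3 the adjusted p was 0.231, 0.233 and 0.214, and without control 1, 2 or 3 it was 0.215, 0.204 and 0.230. In these 6 fits the log2 fold change was -0.41 to -0.35. Without cKO 4 the adjusted p was 0.0202 (log2 fold change -0.52), and without control 4 it was 0.0175 (-0.52). With the Xist covariate it was 0.480 (-0.38), and with the replicate number as a block 0.136 (-0.42). The sample names of cKO 3 and control 3 share a leading number, as do those of cKO 4 and control 4, and of cKO 1 and cKO 2, and the labels do not say what it marks. Cox6a2 was lower in cKO 3 than in control 3 and higher in cKO 4 than in control 4, whereas Ndufa4l2 and Cox4i2 were higher in the cKO library both times.

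Cox6a1, the form found in most tissues, was at 194, 193, 168 and 228 CPM in cKO 1 to 4, against 197, 215, 214 and 188 CPM in control 1 to 4, with overlapping genotypes and a log2 fold change of -0.05 (95% interval -0.25 to 0.14). Cox6a2 made up 20.1%, 20.3%, 21.1% and 21.7% of the pair in cKO 1 to 4, against 26.1%, 25.8%, 26.7% and 22.2% in control 1 to 4. As a share the genotypes did not overlap, cKO 4 lay with the other cKO libraries, and control 4 was the control nearest to them.

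**Figure D2:**
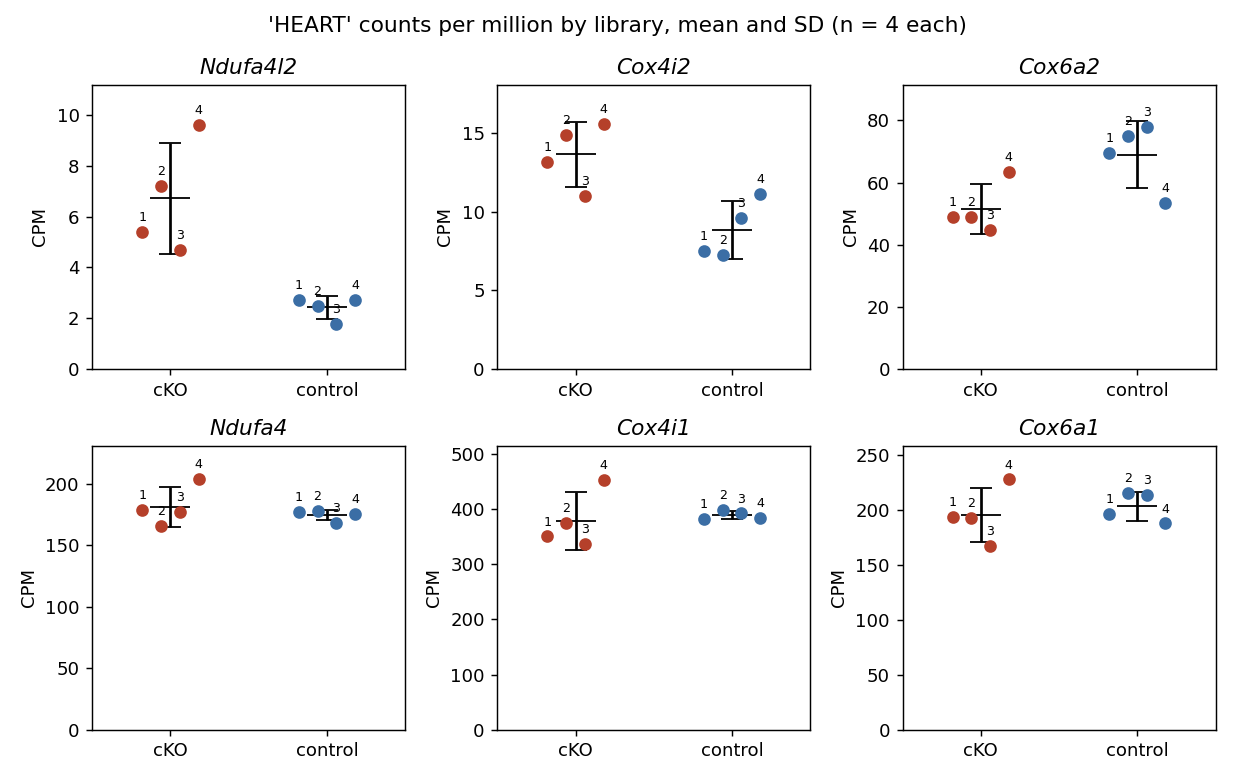
CPM in each 'HEART' library (points, numbered by replicate) with the mean and SD (n = 4 each) for the 3 genes called in the upper row and their common paralogues in the lower row. Ndufa4l2 is the gene without overlap, and in all 6 panels cKO 4 is the highest cKO library.

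The level of another striated muscle form did not separate the genotypes. Cox7a1, which encodes that form of subunit VIIa, was at 24.9, 25.3, 20.4 and 31.3 CPM in cKO 1 to 4, against 24.2, 24.8, 25.5 and 24.8 CPM in control 1 to 4. Its log2 fold change was 0.04 (95% interval -0.20 to 0.29). Cox7a2, its widely expressed partner, was at 158, 163, 125 and 184 CPM in cKO 1 to 4, against 175, 180, 173 and 177 CPM in control 1 to 4, a log2 fold change of -0.16 (95% interval -0.37 to 0.05). Neither passed the test, yet the share of Cox7a1 in the pair was 13.4% to 14.5% in cKO, against 12.1% to 12.8% in control, with no overlap. Such shares do not depend on the scaling between libraries, and they were not tested. How often shares of unrelated gene pairs fail to overlap was not computed. Ndufa4l2, Cox4i2 and Cox6a2 were called on the same counts that give their shares.

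Cox6b2, known chiefly from testis, took 0.769% to 1.90% of its pair with Cox6b1 in cKO and 0.794% to 1.74% in control. Its own level was 1.80 to 4.10 CPM in cKO and 2.02 to 3.96 CPM in control, so that neither measure separated the genotypes. The third muscle form, Cox8b, lay near 0 counts and took at most 0.0315% of its pair in cKO and 0.0594% to 0.0935% in control. Cox8a, its common partner, was at 235 to 322 CPM in cKO and 265 to 298 CPM in control. The 3 genes for the c subunit of ATP synthase, which encode the same mature protein, overlapped between genotypes in their shares. Atp5g3 supplied 78.5% to 81.5% of their summed CPM in cKO and 77.9% to 79.9% in control, Atp5g1 17.3% ± 1.16 in cKO and 18.1% ± 0.887 in control (SD, n = 4 each), and Atp5g2 2.84% to 3.35% in cKO and 2.73% to 3.15% in control.

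**Figure D3:**
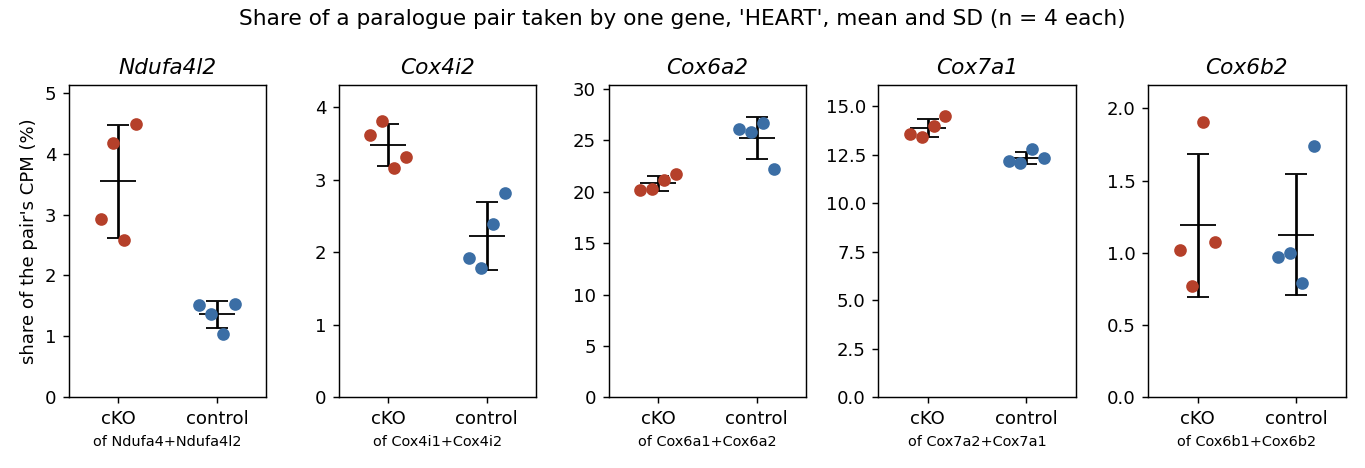
Share of the summed CPM of a paralogue pair taken by Ndufa4l2, Cox4i2, Cox6a2, Cox7a1 and Cox6b2 in each 'HEART' library (points) with the mean and SD (n = 4 each). The first 4 do not overlap between genotypes, with Cox6a2 lower and the other 3 higher in cKO, and Cox6b2 overlaps. The first 3 are the genes called on the same counts, and shares of unrelated gene pairs were not computed.

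Genes of several other lists differed between the same cKO and control libraries. They included lists named for the response to low oxygen, smooth muscle, pharyngeal endoderm and neural crest. Which cells expressed these genes was not tested. The lists were chosen with earlier results of these data known. Over all genes tested 3.51% were called higher and 2.92% lower. Of 16 low oxygen genes tested 7 rose in cKO and none fell, with a median log2 fold change of 0.30. At an unadjusted p under 0.05 by edgeR there were 14 of the 16, and 8 with log2 Xist CPM as a covariate. Adm, which encodes the vasoactive peptide adrenomedullin, was at 29.4, 25.8, 22.5 and 24.9 CPM in cKO 1 to 4, against 16.0, 18.5, 13.7 and 16.4 CPM in control 1 to 4 (log2 fold change 0.67 ± 0.11, SE). Egln3, a prolyl hydroxylase that acts on hypoxia-inducible factors, rose by 0.87 ± 0.17 and Bnip3, a receptor for the removal of mitochondria, by 0.62 ± 0.13 on the log2 scale. The adjusted p by edgeR was 0.00479 for Adm, 0.00986 for Egln3 and 0.0175 for Bnip3. The list summed to 7348 to 8476 CPM in cKO, against 6415 to 7482 CPM in control, where control 4 had the highest control sum.

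Of 10 smooth muscle and mural genes tested 4 rose in cKO (Tagln, Cnn1, Myh11 and Acta2) and 1 fell (Abcc9). Tagln, which encodes the smooth muscle protein transgelin, was at 1634, 1527, 1417 and 1623 CPM in cKO 1 to 4, against 951, 855, 898 and 1006 CPM in control 1 to 4 (log2 fold change 0.74 ± 0.07, SE, adjusted p = 0.000132 by edgeR). The list summed to 8145 to 9036 CPM in cKO, against 6492 to 7359 CPM in control, and the genotypes did not overlap. Most of that sum was Acta2, which alone averaged 6287 CPM in cKO and 5274 CPM in control. Rgs5, Pdgfrb, Cspg4 and Notch3, which mark pericytes and other mural cells, were in the list and were not called. Kcnj8 was under the filter, with 0 to 1 counts a library. Abcc9, also in the list, fell to 84.3 ± 17.9 CPM in cKO, against 153 ± 41.9 CPM in control. Of the 15 cardiomyocyte markers 1, Actn2, fell (log2 fold change -0.27 ± 0.08, adjusted p = 0.0933 by edgeR). Of 4 pharyngeal endoderm markers tested 1 rose, Krt19, a keratin of simple epithelia. It was at 202 to 249 CPM in cKO and 83.4 to 144 CPM in control (2.26-fold, adjusted p = 0.000892 by edgeR). The 7 listed summed to 500 to 558 CPM in cKO, against 246 to 493 CPM in control, without overlap. Nearly all of that sum came from the keratins Krt8, Krt18 and Krt19. Epcam averaged 1.81 CPM in cKO and 1.15 CPM in control and was not called, and Foxa2, Shh and Sox2 were under the filter. Of 5 neural crest markers listed only 2 were tested, and both fell. Twist1 fell to 7.74 ± 1.26 CPM in cKO, against 14.7 ± 2.19 CPM in control. Alx1 fell to 0.983 ± 0.248 CPM in cKO, against 3.04 ± 0.739 CPM in control. Sox10, Tfap2a and Foxd3 were under the filter, and Foxd3 had 0 counts in every library. The median log2 fold change was 0.28 over 7 endothelial, -0.80 over 9 erythroid and 0.05 over 6 epicardial genes, lists whose sums overlapped between genotypes. Erythroid genes summed to 1259 to 5871 CPM in cKO, against 4436 to 13083 CPM in control, with control 4 highest. Whether any of these lists had a part in the difference of Ndufa4l2, Cox4i2 or Cox6a2 was not tested.

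Among lists nearer to the respiratory chain, fewer genes passed. None of 11 other chain genes (such as Cyc1 and Cycs), 28 assembly genes of complexes II to V or 16 genes of mitochondrial transcription and biogenesis was called in either direction by edgeR or DESeq2, with 1, 2 and 1 genes at an unadjusted p under 0.05. Their median log2 fold changes were -0.06, -0.05 and -0.06. Of 16 genes of the tricarboxylic acid cycle and pyruvate dehydrogenase 1 was called: Suclg2, a succinyl-CoA ligase subunit, was at 92.1 ± 2.85 CPM in cKO and 74.4 ± 4.68 CPM in control (log2 fold change 0.31 ± 0.07, adjusted p = 0.0217 by edgeR). Subunits encoded by mitochondrial DNA were not analysed here.

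Complex I, NADH dehydrogenase, had a median log2 fold change of -0.03 over its 44 genes, 31 of them below 0. Its genes summed to 3612, 3656, 3501 and 4357 CPM in cKO 1 to 4, against 3860, 4008, 3929 and 3692 CPM in control 1 to 4, so that cKO 1, 2 and 3 lay below all controls and cKO 4 above. Besides Ndufa4l2 none of its genes was called. The lowest estimates were those of Ndufa11, a membrane arm subunit, at 58.7 ± 9.41 CPM in cKO and 66.7 ± 2.08 CPM in control (log2 fold change -0.18), and of the assembly factor Ndufaf6, at 13.9 ± 0.305 CPM in cKO and 15.5 ± 1.21 CPM in control (-0.16). All 7 assembly factors together had a median of -0.04.

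Complex II, succinate dehydrogenase, the member of the chain that also serves the tricarboxylic acid cycle, varied least. Sdha, its flavoprotein, was at 448, 433, 462 and 429 CPM in cKO 1 to 4, against 446, 463, 466 and 434 CPM in control 1 to 4, and cKO 4 was its lowest library. Sdhb, the iron-sulphur subunit, was at 190, 189, 203 and 230 CPM in cKO 1 to 4, against 210, 214, 208 and 173 CPM in control 1 to 4. The membrane anchors Sdhc and Sdhd averaged 204 ± 17.5 and 298 ± 24.2 CPM in cKO, against 208 ± 8.02 and 304 ± 9.25 CPM in control. The 4 log2 fold changes ran from -0.03 to 0.02, with 4 of the 4 intervals within 1.2-fold of no change.

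Complex III, the cytochrome bc1 complex, summed to 1460, 1473, 1461 and 1806 CPM in cKO 1 to 4, against 1570, 1631, 1612 and 1489 CPM in control 1 to 4. Its log2 fold changes ran from -0.06 (Uqcrc1, a core protein) to 0.07 (Uqcrh, the hinge protein and the most abundant of the 8 per kb of exon), and none was called. Between these, Uqcrq had a log2 fold change of -0.06 and Uqcr10 of -0.01, both small membrane subunits. The 95% interval lay within 1.2-fold of no change for 6 of the 8 genes. All 8 genes were above their mean over the libraries in cKO 4.

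Complex IV, cytochrome c oxidase, held both a higher and a lower gene of the 3 called, and its sum was 2174, 2190, 1986 and 2650 CPM in cKO 1 to 4, against 2323, 2413, 2382 and 2231 CPM in control 1 to 4. The 13 genes not called ran from -0.16 (Cox7a2) to 0.04 (Cox7a1). Cox8a, the most abundant per kb of exon at 494 CPM per kb in cKO and 514 CPM per kb in control, had a log2 fold change of -0.05 (95% interval -0.25 to 0.14). Cox6b1, which lies on the face towards the intermembrane space, was at 239 ± 27.1 CPM in cKO and 244 ± 17.1 CPM in control.

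Complex V, ATP synthase, took the largest part of the counts, 7519, 7671, 7591 and 8951 CPM in cKO 1 to 4, against 7922, 8294, 8252 and 7758 CPM in control 1 to 4. Atp5b, the catalytic beta subunit and the most abundant chain gene per kb of exon, was at 2532, 2671, 2605 and 2984 CPM in cKO 1 to 4, against 2589, 2780, 2746 and 2617 CPM in control 1 to 4 (log2 fold change 0.01, 95% interval -0.13 to 0.15). The highest estimates were Atp5s (0.15) and Atp5l (0.10) and the lowest Atp5sl (-0.24) and Atp5k (-0.15), the e subunit, and none was called. Of the 43-base stretches of the Atp5l transcript 85.1% also occur in transcripts of other genes, so its level of 14.1 ± 2.05 CPM in cKO and 13.2 ± 1.51 CPM in control is uncertain. The same holds for Atp5o (91.4%) and Atp5h (51.9%), and 16 of the 88 genes shared over 20%.

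The 3 chain genes on the X chromosome were not called. Ndufa1 was at 37.0 ± 5.39 CPM in cKO and 36.5 ± 1.94 CPM in control, Ndufb11 at 108 ± 21.3 CPM in cKO and 112 ± 2.36 CPM in control, and Cox7b at 180 ± 23.0 CPM in cKO and 187 ± 3.89 CPM in control.

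The spread among cKO libraries came mainly from cKO 4, in which the chain genes were high together. All 88 summed to 15888, 16091, 15685 and 18985 CPM in cKO 1 to 4, against 16858, 17528, 17354 and 16282 CPM in control 1 to 4. The means were 16662 ± 1558 CPM in cKO and 17006 ± 560 CPM in control (SD, n = 4 each), and the genotypes overlapped through cKO 4 alone. In cKO 4, 83 of the 88 genes were above their mean over the 8 libraries and 68 had their highest value of any library, against 18.9% of all genes tested with their highest value there. In cKO 1, 2 and 3 only 10, 17 and 13 of the 88 were above their mean, and in control 1 to 4 it was 56, 76, 63 and 22.

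Without cKO 4, 79 of the 88 estimates lay below 0, the median log2 fold change was -0.10 (beside -0.00162 over all genes), and 10 genes were called, 2 higher and 8 lower. That was 11.4% of the chain genes beside 11.1% of all genes in the same fit. By direction, 2 of the 88 were called higher, beside 6.81% of all genes, and 8 of the 88 lower, beside 4.28% of all genes. The share of all genes with an estimate below 0 was not computed in this fit. The 7 genes that joined the 3 called with all libraries were chosen after their values were seen: Ndufa11, Ndufa8, Ndufs8, Ndufv1 and Ndufb11 of complex I and Atp5o and Atp5e of complex V. Their log2 fold changes without cKO 4 were -0.28 (Ndufa11) to -0.18 (Atp5o), with adjusted p of 0.0326 (Ndufa11) to 0.088 (Atp5e) by edgeR. With all libraries their adjusted p was 0.392 to 0.888. No other library had this effect: the number called was 1 to 3 when any of the other 7 was left out.

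Other short transcripts deviated in the same direction as the chain genes in all libraries but control 3 and control 4. The chain genes had a median exon length of 1021 bases, against 3465 bases over all genes tested. On the log2(CPM + 0.5) scale, their median deviation from the mean of the 8 libraries was 0.20 in cKO 4 and -0.14 in cKO 3. For 373 other genes with exons under 1 kb it was 0.19 in cKO 4 and -0.17 in cKO 3, and for 77 cytosolic ribosomal protein genes it was 0.25 in cKO 4 and -0.19 in cKO 3. In control 3 and control 4 the signs were opposite, at 0.03 and -0.04 for the chain genes, -0.03 and 0.03 for the other short genes and -0.05 and 0.05 for the ribosomal protein genes. The share of genes with their highest value in cKO 4 was 77.3% of the chain genes, 46.6% of the other short genes and 92.2% of the ribosomal protein genes. Genes with exons of 4 kb or more lay on the opposite side of their mean, at -0.08 in cKO 4 and 0.07 in cKO 3. Without regard to single libraries, the median log2 fold change was -0.07 for the other genes under 1 kb, -0.04 for ribosomal protein genes and 0.03 for genes of 4 kb or more, beside -0.03 for the chain genes. Estimates below 0 made up 72.7% of the chain genes, 68.9% of the other genes under 1 kb and 80.5% of the cytosolic ribosomal protein genes. They made up 85.7% of 77 mitochondrial ribosomal protein genes (median -0.08) and 42.4% of genes of 4 kb or more. The part of transcript length in the chain genes' values was not tested.

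**Figure D4:**
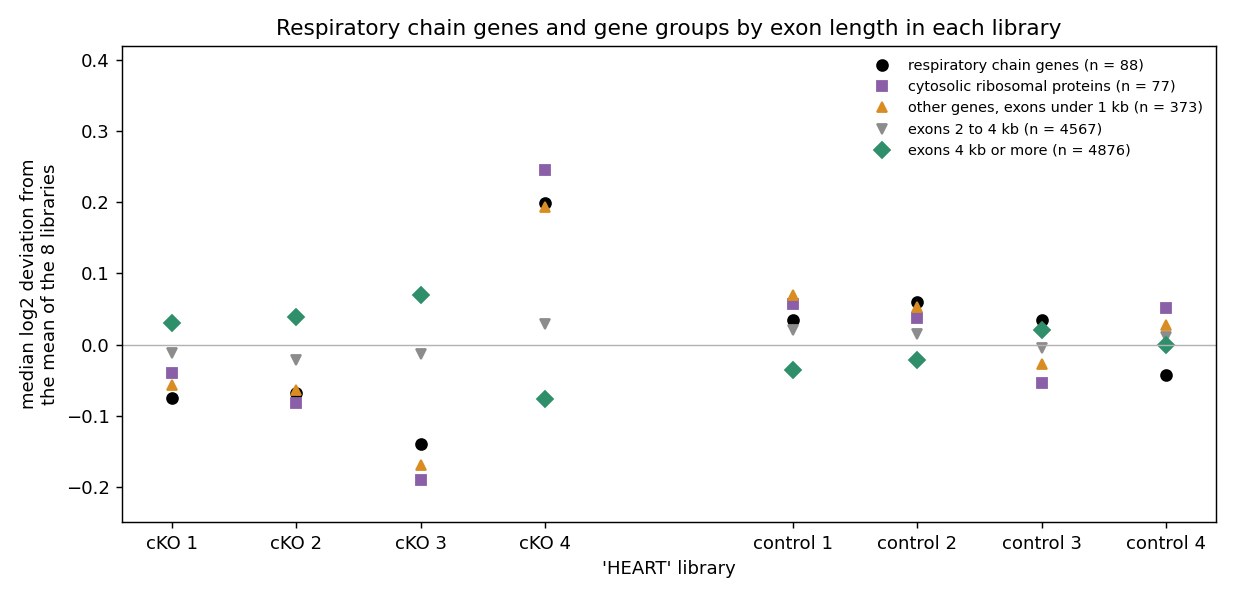
Median log2(CPM + 0.5) deviation from the mean of the 8 'HEART' libraries, in each library, for the 88 chain genes, 77 cytosolic ribosomal protein genes, 373 other genes with exons under 1 kb and genes with exons of 2 to 4 kb and of 4 kb or more. The first 3 groups lie together at 0.19 to 0.25 in cKO 4 and at -0.19 to -0.14 in cKO 3, while the longest genes lie at -0.08 and 0.07.

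In 'SHF' the chain genes were almost equal between genotypes. The deposited values were 1 FPKM (fragments per kilobase of transcript, scaled to sequencing depth) per genotype, so there is no spread between samples, no test, and unknown depth. Of the 88 genes 85 had a locus of their own and 3 shared one with another gene (Ndufa7, Cox7a1 and Sdhd), and Cox6a2, at 0.0133 in cKO and 0.0969 in control, was under the minimum of 1 FPKM. Of the remaining 84, none differed by more than 1.5-fold, beside 1.96% of all 11030 loci with 1 symbol. In all, 79 of the 84 (94.0%) lay within 1.1-fold, beside 79.6% of all loci. The loci compared were not matched for level, and 80 of the 84 chain genes had a mean of at least 5 FPKM. Summed over the 84, FPKM was 10057 in cKO and 10064 in control, and their median log2 ratio was 0.000589.

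The 2 genes of highest ratio were both weakly expressed. Ndufa4l2 had 2.02 FPKM in cKO, against 1.49 FPKM in control, or 1.36-fold. Cox6b2 had 5.13 FPKM in cKO, against 3.85 FPKM in control, or 1.33-fold. Cox4i2 followed with 6.13 FPKM in cKO, against 5.41 FPKM in control, or 1.13-fold. Ndufa4l2 and Cox4i2 were thus higher in cKO in both dissections, in 'SHF' by an amount that cannot be set against an error. All 8 embryos of the 'HEART' samples were also among the 11 of the 'SHF' samples, so the dissections are not independent of each other. The common forms lay closer to equality, with Ndufa4 at 270 (cKO) and 280 (control) FPKM and Cox4i1 at 357 (cKO) and 349 (control) FPKM. By complex, the summed FPKM in cKO and control was 2998 and 3010 for complex I, 247 and 244 for complex II (without Sdhd), 1123 and 1140 for complex III, 2311 and 2315 for complex IV, and 3377 and 3354 for complex V. The lowest ratio was that of Ndufa1, at 55.9 (cKO) and 61.6 (control) FPKM.

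**Figure D5:**
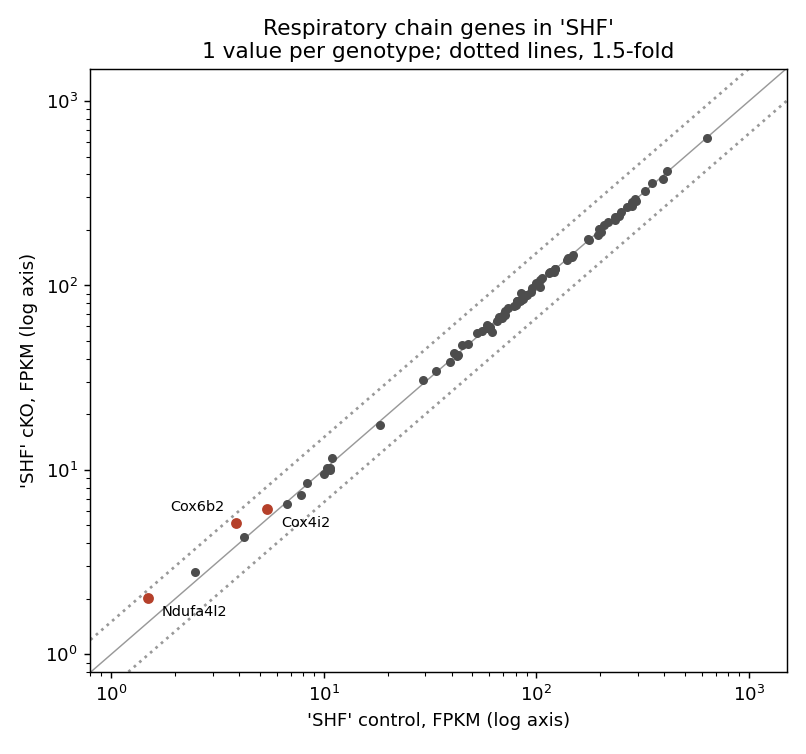
FPKM of the 84 chain genes in 'SHF', cKO on the vertical and control on the horizontal axis (both log scales), with the line of equality and dotted lines at 1.5-fold. Every gene lies between the dotted lines, and Ndufa4l2 (2.02 and 1.49) and Cox6b2 (5.13 and 3.85) are furthest above equality.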

How the data were processed

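The authors deposited raw read counts per gene for the 8 'HEART' samples. Per the study's methods and the submitters' processing notes, reads were trimmed with fastp 0.20.1, aligned to mm10 with STAR 2.7.2b and counted with featureCounts 1.6.4. The sources used here do not give the strand setting, so a gene and its antisense partner may share reads. Beside counts the table held the authors' DESeq2 fold changes and p-values and 8 columns of normalised values per sample, which were not used, and 27 rows with dates as symbols. For 'SHF' the authors deposited a single FPKM per genotype, beside p-values and q-values of their own comparison that were left aside. The methods name STAR 2.5.0b, HTSeq and DESeq2 for it, but its columns are those of another tool, so the unit was read from the layout.

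The test was edgeR 4.0.16 under R 4.3.3 (default filterByExpr, TMM, glmQLFit and glmQLFTest, no covariate, adjusted p of 0.1, the study's threshold). CPM use the TMM library sizes, each SE was derived from the log2 fold change and its F statistic, and the fit was tested on simulated data. Each sample was 1 embryo. Alternatives included DESeq2 1.42.0. In 'SHF', loci with 1 symbol and a mean of at least 1 FPKM were used, and the one of highest mean where a symbol had several. Exon lengths, positions and shared 43-base stretches came from GENCODE M21.

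The members and gene lists were chosen with earlier results of these data known. Genes named were those called, the 2 highest and 2 lowest log2 fold changes and the highest CPM per kb in each complex, the paralogue pairs, complex II, X-linked genes, and of other lists at most 3 genes of smallest p that passed. Some genes were named beyond that, after their values were seen.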

Additional observations from a re-analysis of the deposited data

Results flagged for a closer look

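By Dixon's criterion for 4 samples, 9 of 92 groups of values held a sample far from the other 3, and 7 of the 9 were cKO 4. Chance gives about 1 in 20 for independent groups. These groups came from the same libraries, and some flagged genes are part of the flagged sums. The count of 9 can therefore not be set against that rate. In cKO 4 the sum over all chain genes was 18985 CPM, that of complex III 1806 CPM and that of complex V 8951 CPM. Among the genes named, Uqcr10 was at 155 CPM, Atp5l at 17.1 CPM, Atp5g3 at 723 CPM and Ndufb11 at 140 CPM in cKO 4, each above the other cKO libraries. The other 2 were low values in control 4, with a complex II sum of 1113 CPM and Sdhb at 173 CPM. Control 4 also had the highest summed erythroid markers, 13083 CPM, against 4436 to 5900 CPM in the other controls.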

How the results depend on the processing

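The number of genes called in 'HEART' was 817, of which 3 were chain genes. With log2 Xist CPM as a covariate these were 235 and 0 (2 chain genes, Cox4i2 and Ndufa4l2, at an unadjusted p under 0.05 by edgeR). Leaving out 1 library gave 500 (cKO 2) to 1421 (cKO 4) genes and 1 to 10 chain genes. Of the chain genes, only Ndufa4l2 was called without cKO 1, cKO 2, control 1 or control 2. RLE size factors, total counts, DESeq2, no count filter, a minimum of 10 counts in every sample of a genotype and leaving out erythroid genes gave 806 to 982 genes and the same 3 chain genes, and subunits alone also gave 3. An adjusted p of 0.05 or a minimum mean of 10 CPM gave 2. The median log2 fold change of the chain genes stayed below 0 in every setting, from -0.10 without cKO 4 to -0.00213 without cKO 3. The median over all genes was also below 0 in every fit, at -0.00162 without cKO 4 and -0.00537 without cKO 3. In 'SHF' 2 genes (Ndufa4l2 and Cox6b2) passed the lower of the alternative fold limits, and none passed 1.5-fold at a minimum of 5 FPKM or over all loci of a symbol. With the replicate number as a block, 917 genes and 2 chain genes were called and Cox6a2 was not (adjusted p = 0.136). The replicate numbers were not shown to pair the samples: correlations of same-numbered deviations were 0.08, 0.06, 0.21 and -0.06. 'SHF' depth and spread were not analysed here.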
